A study of Danio rerio and Aquarana catesbeiana with 12 samples.

Results

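The vehicle zebrafish retinal pigment epithelium (RPE) was described here at rest, from 3 RNA sequencing libraries out of 12 samples in the series. They were chosen by label alone, as the zebrafish RPE samples given the vehicle, and all named genes were ranked within them. The fish received the vehicle for 3 weeks, the RPE was dissected, and RNA was taken with an RNeasy mini kit that included a DNase step. Libraries came from the NuGen Ovation RNA-Seq System V2, which amplifies cDNA from total RNA, and shared 1 sequencing lane with the hormone-treated zebrafish libraries. The strain, age and genotype of the fish and the vehicle itself are not given in the sources used here. The labels do not say whether the replicates came from separate fish, so the spread between them may be technical. No comparison with hormone-treated fish or with the bullfrog samples of the series was made, and with 1 group there was no test: all values are descriptions.

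The RPE is a single pigmented layer behind the retina that faces the outer segments of rods and cones. It regenerates the 11-cis chromophore of the opsins in the visual cycle, engulfs the tips shed by outer segments, carries ions, lactate and nutrients between choroid and retina, and holds melanin granules. In zebrafish its apical processes reach between the photoreceptors, so a dissected RPE can carry photoreceptor material with it. In a bulk sample, fewer cells of a type and less RNA per cell cannot be told apart.

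The deposited table gave 11739178 counts for vehicle replicate 1, 10668014 for vehicle replicate 2 and 10582772 for vehicle replicate 3 (vehicle 1, 2 and 3 from here). It listed 18315 transcript records. Of these, 14436 carried a gene name and gave 14290 named genes, with 80.01%, 75.2% and 71.0% of the counts of vehicle 1, 2 and 3. A level is given as CPM, the count scaled to the library total, or as CPM per kb of the deposited transcript length. Levels of single genes were compared per kb unless CPM is named. The shares of gene lists, and the shares held by the most abundant genes, are of counts unless per kb is stated. Such shares give more weight to long transcripts. The median named gene had a mean level of 7.17 CPM per kb. Only 7 named genes were at 0 in any library. Whether genes with few or no counts were left out before deposit is not known here. The low number therefore cannot be read as a trait of the RPE. The median, the places in the ranking and the numbers of measured genes and of gene pairs refer to listed genes only. A symbol that was not measured was not listed, and its level is unknown. The limit that a count of 0 allows was taken as 3 counts. It corresponded to 0.256, 0.281 and 0.283 CPM in vehicle 1, 2 and 3.

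Vehicle 3 stood apart from the other libraries. Spearman's rho over the named genes was 0.986 between vehicle 1 and 2, against 0.943 between vehicle 1 and 3 and 0.954 between vehicle 2 and 3. It was the library farthest from the middle value for 56.6% of the 8590 genes with a mean of at least 10 CPM, against 26.6% for vehicle 1 and 16.9% for vehicle 2. These percentages are by CPM, by which most of these genes were lower in vehicle 3, as given below. They were not determined under another scaling. A chi-square over its degrees of freedom of 8.81, 28.7 and 21.7 for the pairs 1 and 2, 1 and 3, and 2 and 3 showed that no pair of libraries agreed within sampling noise. The results below are therefore given for each library, and the values without vehicle 3 are given where it decides them.

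Records with only a locus number took a different share of each library. These 2069 records held 14.5% of the counts in vehicle 1, 19.4% in vehicle 2 and 24.1% in vehicle 3. The 3 most abundant, LOC100537015, LOC100151188 and LOC100333326, are titled hypothetical in the deposited table and together held 8.70%, 13.2% and 17.97% of the counts. LOC100537015 alone averaged 34942 CPM per kb, more than rhodopsin, the most abundant named gene, at 28257 CPM per kb. The order depended on the library. LOC100537015 had 34931, 46370 and 60635 CPM, and rhodopsin 44821, 39584 and 49871 CPM. It was thus below rhodopsin in vehicle 1 and above it in vehicle 2 and 3, also per kb. Of the 6 most abundant locus records, 5 had their lowest CPM in vehicle 1 and their highest in vehicle 3. The exception, LOC100534948, had 10387, 13018 and 10139 CPM.

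What these records encode was not analysed here. Since CPM is a share of the total, they lower the CPM of the other genes where they are high. Relative to vehicle 1, the median log2 difference of the named genes with at least 10 CPM was -0.20 in vehicle 3 and -0.07 in vehicle 2, and it was -0.13 in vehicle 3 relative to vehicle 2. With library scaling by trimmed mean of M values (TMM), which sets the bulk of the genes level, these medians were -0.02, -0.01 and -0.01. Differences between libraries are therefore also given with TMM scaling where the direction depends on it. By CPM, most of these genes were thus lower in vehicle 3 than in vehicle 1, and most were lower than in vehicle 2. The share of all named genes that were highest or lowest in each library was not determined. The numbers of list members highest or lowest in a library lack that reference and do not by themselves set a list apart.

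The named transcriptome was concentrated in few genes, and photoreceptor genes led it. Rhodopsin alone held 5.96% of the named-gene CPM, the 10 most abundant genes 13.1%, the 100 most abundant 27.8% and the 1000 most abundant 58.7%. It took 599 genes to hold 50% of the named-gene CPM, and 611, 626 and 536 in vehicle 1, 2 and 3 taken singly. On the scale of CPM per kb, the same share was held by 299 genes. The level at rank 100 was 480 CPM per kb and at rank 1000 it was 51.6 CPM per kb.

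Rhodopsin, rho, the visual pigment of rods, had 28296, 24990 and 31484 CPM per kb in vehicle 1, 2 and 3. The next gene was gngt1, the gamma subunit of rod transducin, with 7300, 6617 and 6637 CPM per kb. gnat1, the rod transducin alpha subunit, had 6190, 5809 and 4541 CPM per kb. These rod genes thus held the first 3 places, and the lowest rho value was above the highest gngt1 value.

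Places 4 and 5 went to inhibitory subunits of the phosphodiesterase that closes the light-gated channels. pde6ha, of cones, had 5720, 4960 and 4495 CPM per kb. pde6g, of rods, had 5388, 4560 and 4238 CPM per kb. gnat1, pde6ha and pde6g kept this order in each library, although their ranges over the libraries overlapped.

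The first RPE gene in the ranking was rpe65a at place 6, the retinoid isomerase of the visual cycle, with 4639, 4327 and 3650 CPM per kb. rgrb, a retinal G protein-coupled receptor that binds retinal in RPE, followed with 2782, 2783 and 3120 CPM per kb. rpe65a was above rgrb and below pde6g in each library, although the ranges of rpe65a and pde6g over the libraries overlapped. The level of rpe65a divided by that of rho was 0.164, 0.173 and 0.116 in vehicle 1, 2 and 3.

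The other genes among the first 20 were of mixed function. Cytoplasmic actin actb2 averaged 2812 ± 285 CPM per kb (SD, n = 3), and the liver-type fatty acid-binding protein fabp1a averaged 2624 ± 194 CPM per kb. rbp4l, a retinol-binding protein 4-like gene, averaged 2107 ± 65.8 CPM per kb. The alpha globin hbaa1 and the beta globin hbba1 averaged 2023 ± 1048 and 1654 ± 823 CPM per kb, with SDs that were far wider than those of their neighbours in the ranking.

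The interphotoreceptor retinoid-binding protein rbp3 averaged 2020 ± 216 CPM per kb, the transducin beta subunit gnb1a 1849 ± 295 CPM per kb and the second cone phosphodiesterase subunit pde6hb 1443 ± 264 CPM per kb. The elongation factor eef1a1l1 averaged 1852 ± 297 CPM per kb, the brain-type creatine kinase ckbb 1713 ± 322 CPM per kb and the mitochondrial ADP/ATP carrier slc25a5 1589 ± 107 CPM per kb. ppdpfa, named for pancreatic progenitor differentiation, averaged 1789 ± 250 CPM per kb, and the tetraspanin-like membrane protein gene tm4sf18 averaged 1668 ± 469 CPM per kb. From rbp4l at place 10 down to tm4sf18 at place 17, neighbouring means differed by less than the larger of their SDs.

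**Figure D1:**
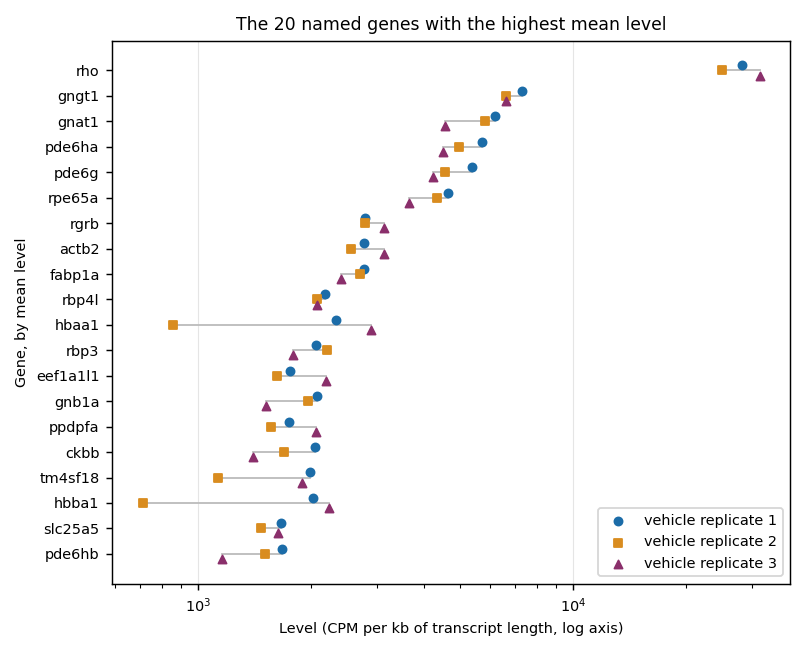
Level of the 20 named genes with the highest mean, in CPM per kb of transcript length on a log axis. Each row is a gene and each point is 1 vehicle library, with a grey line from the lowest to the highest. rho lies apart on the right, between 24990 and 31484, and the globins hbaa1 and hbba1 have the longest lines because vehicle 2 was low.

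The 100 most abundant genes per kb included 32 of the 80 cytosolic ribosomal proteins, 11 rod genes, 9 cone genes, 7 visual cycle genes and 2 melanin genes. Another 28 were in none of the 28 lists used. The membership was stable: 83 genes were in the first 100 of all 3 libraries and 9 were in the first 10 of all 3.

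By CPM alone, which favours long transcripts, the first 30 genes also held transcripts that ranked lower per kb. The neuronal sodium pump subunit atp1a3b had 3447, 2634 and 2030 CPM, the amyloid precursor-like protein aplp2 had 1821, 1753 and 1506 CPM, and the lysosomal trafficking regulator lyst had 1404, 1390 and 1841 CPM. The large gene kiaa1109, at 1471, 1446 and 1847 CPM, has a transcript length of 14769 bases and was at place 471 per kb. The remaining 26 of the 30 were led by rho at 44821, 39584 and 49871 CPM.

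The defining markers of the RPE ranked high, as the tissue label implies. rpe65a, rgrb, rlbp1b and rdh5 were at places 6, 7, 22 and 188 of 14290. rlbp1b, the retinaldehyde carrier of the RPE, had 1454, 1353 and 1255 CPM per kb. rdh5, the 11-cis retinol dehydrogenase that follows the isomerase, had 321, 287 and 254 CPM per kb. All 4 markers were within a factor of 1.27 between their lowest and highest library, and together they held 1.35%, 1.28% and 1.18% of the counts.

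The wider list of visual cycle and retinoid genes had 21 of its 29 symbols measured. It held 2.23%, 2.15% and 1.98% of all counts in vehicle 1, 2 and 3, a mean of 2.12% ± 0.127 (SD, n = 3). Of the 21 genes, 10 were among the first 1000 and 15 were above the median named gene. Without vehicle 3 the mean share was 2.19%. The list was set by gene name and includes rbp4l, at a mean of 1799 CPM. Whether each member, such as rbp4l, is made only by the RPE was not tested.

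Carriers and receptors of retinol were abundant as well. stra6, the receptor through which cells take up retinol, had 1300, 1298 and 1263 CPM per kb, the smallest relative spread of any gene among the first 30. rbp5, a cellular retinol-binding protein, had 1403, 1419 and 1041 CPM per kb. rgra, the second retinal G protein-coupled receptor, had 740, 717 and 781 CPM per kb.

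Enzymes that act on retinol and carotenoids were much lower than the isomerase. bco2a, a carotenoid-cleaving oxygenase, averaged 81.1 ± 4.89 CPM per kb. lratb.1, a lecithin retinol acyltransferase that makes the ester used by the isomerase, averaged 48.2 ± 9.04 CPM per kb. rdh10a, a retinol dehydrogenase, had 25.7, 26.7 and 11.9 CPM per kb and was lowest in vehicle 3.

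cyp27c1, the enzyme that turns vitamin A1 into vitamin A2, had 75.5, 86.6 and 44.9 CPM per kb at rest, place 723. It was thus well above the median named gene in each vehicle library. Its factor of 1.93 between libraries was wider than that of rpe65a.

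Pigment genes held a smaller share of the counts than visual cycle genes. The 19 measured melanin and melanosome genes held 0.509%, 0.466% and 0.513%, and 17 of them were above the median named gene. The median melanin gene had 34.7 CPM per kb, and the median visual cycle gene 48.2 CPM per kb. The list was led by trpm1b, a melastatin channel gene, with 776, 783 and 941 CPM per kb. dct, the dopachrome tautomerase of eumelanin synthesis, had 602, 529 and 565 CPM per kb.

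tyrp1b, a tyrosinase-related protein, had 430, 348 and 425 CPM per kb, and pmela, the fibril protein of the melanosome, had 249, 211 and 247 CPM per kb. The level of rpe65a over that of tyrp1b was 10.8, 12.4 and 8.59. tyr, tyrosinase itself and the first enzyme of melanin synthesis, had only 20.5, 18.3 and 18.6 CPM per kb and was at place 3119. The transporters oca2 and slc45a2, which act in melanosomes, averaged 34.7 ± 5.47 and 32.5 ± 1.27 CPM per kb.

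The 33 measured genes of RPE transport, adhesion and phagocytosis held 0.460%, 0.438% and 0.434% of the counts. This sum was steadier than its members, whose median CV was 18.5%. best1, the bestrophin chloride channel of the RPE, had 295, 281 and 382 CPM per kb. The sodium pump subunits atp1a1a.1 and atp1b1a averaged 257 ± 29.7 and 198 ± 16.02 CPM per kb. bsg, basigin, a partner of lactate transporters, averaged 157 ± 5.95 CPM per kb, and mfge8a, a bridge protein in engulfment, averaged 130 ± 9.38 CPM per kb. otx2b, a transcription factor of RPE and photoreceptors, had 108, 107 and 101 CPM per kb.

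Rod transcripts were the largest tissue list in the libraries. The 32 measured rod genes held 9.99%, 9.12% and 9.23% of all counts, a mean of 9.45% ± 0.472 (SD, n = 3), and all 32 were above the median named gene. The visual cycle list amounted to 0.223, 0.236 and 0.215 times the rod list in vehicle 1, 2 and 3. The list was set by gene name, and whether each member, such as rbp3, is made only by rods was not tested. How much of the rod RNA came from photoreceptors attached to the RPE was not tested.

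The steady rod total hid a difference within the list. By CPM, 29 of the 32 rod genes were lowest in vehicle 3, and by TMM scaling 26 were, whereas rho was highest there. The share of all named genes lowest there was not determined. Neither these numbers nor those of the lists below therefore set a list apart. The level of rho over that of gnat1 was 4.57 in vehicle 1, 4.30 in vehicle 2 and 6.93 in vehicle 3. With TMM scaling the whole rod list was 0.07 above its 3-library mean in vehicle 3 on the log2 scale, and 0.07 below it in vehicle 2.

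The rim protein rom1b had 1432, 1348 and 1214 CPM per kb, and the rhodopsin kinase grk1a had 586, 577 and 422 CPM per kb. rdh8a, the retinol dehydrogenase of outer segments, had 519, 563 and 469 CPM per kb. All 3 were lowest in vehicle 3, unlike rho.

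Cone transcripts were lower and less even. The 36 measured cone genes held 2.37%, 1.89% and 1.40% of the counts, a factor of 1.70 between vehicle 1 and 3. By CPM, 32 of them were lowest in vehicle 3, and by TMM scaling 31 were. The rod list over the cone list was 4.21 in vehicle 1, 4.82 in vehicle 2 and 6.60 in vehicle 3. The rod list includes rho, at 44821, 39584 and 49871 CPM, so the size of the ratio in vehicle 3 rested in part on rho. gnat2, the cone transducin alpha subunit, had 1673, 1345 and 889 CPM per kb. The rod subunit gnat1 was 3.70, 4.32 and 5.11 times that level.

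The 4 cone opsin classes were all measured. The green opsin opn1mw2 had 1235, 1005 and 464 CPM per kb and was the most abundant cone opsin in vehicle 1 and 2. The blue opsin opn1sw2 had 957, 767 and 518 CPM per kb, above opn1mw2 in vehicle 3. The red opsin opn1lw1 had 781, 562 and 446 CPM per kb, and the ultraviolet opsin opn1sw1 had 521, 446 and 263 CPM per kb. Each of these was lowest in vehicle 3. rho over opn1mw2 was 22.9, 24.9 and 67.8, so the size of this ratio rested on vehicle 3.

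Genes of the inner retina and of Muller glia, the radial glia of the retina, were also measured, at lower shares. The 38 measured inner retina genes held 0.248%, 0.212% and 0.180% of the counts, and 33 of them were lowest in vehicle 3 under CPM and under TMM scaling. gad1b, which makes the transmitter GABA, had 66.2, 47.6 and 19.9 CPM per kb, and the synaptic genes snap25b and syt1a had 137, 121 and 76.4 and 54.4, 42.5 and 11.5 CPM per kb. The leading gene of the list ran the other way: trpm1a, the channel of ON bipolar cells in mammals, had 596, 520 and 818 CPM per kb, highest in vehicle 3, like its copy trpm1b in the melanin list.

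The 15 measured Muller glia genes held 0.312%, 0.231% and 0.198%. glula, glutamine synthetase, had 350, 317 and 344 CPM per kb, and ca2, a carbonic anhydrase, had 343, 232 and 206 CPM per kb. Thus glula was even across the libraries and ca2 was highest in vehicle 1. Both genes are also known outside Muller glia.

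Blood, immune, surface and connective tissue genes differed between the libraries in other ways. The 11 measured red blood cell genes held 0.307% and 0.344% in vehicle 1 and 3, and 0.108% in vehicle 2. hbaa1 had 2327, 857 and 2886 CPM per kb and hbba1 had 2026, 711 and 2226 CPM per kb. Of the 11 genes, 10 were lowest in vehicle 2, also with TMM scaling. Without vehicle 2 the mean share of the list was 0.326%.

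Skin and corneal epithelium genes marked vehicle 3. The 15 measured genes held 0.0291% and 0.0305% in vehicle 1 and 2, and 0.135% in vehicle 3, and all 15 were highest in vehicle 3 under CPM and TMM scaling. krt91 and krt5, keratins of surface epithelia, had 60.2, 42.2 and 252 CPM per kb and 27.9, 29.4 and 144 CPM per kb. icn2, an ictacalcin gene of fish epithelia, had 14.1, 15.7 and 85.0 CPM per kb. The share of the list was thus at most 0.135% where it was highest, and 0.0298% without vehicle 3. Its part in the other differences of vehicle 3 was not tested.

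The 23 measured macrophage and leukocyte genes held 0.0701%, 0.0745% and 0.0962%, and 17 of them were highest in vehicle 3. cd74a, an antigen presentation chaperone, led with 221, 259 and 323 CPM per kb. csf1ra, the receptor kinase of macrophages that zebrafish xanthophores also use, averaged 27.5 ± 3.73 CPM per kb.

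Fibroblast and sclera genes held 0.0461%, 0.0443% and 0.0558% over 22 measured genes. sparc, a matrix glycoprotein, led with 102 ± 9.51 CPM per kb, and 17 of the 22 were under 5 CPM per kb. Genes of iridophores and xanthophores, the other pigment cells of fish, held 0.0870%, 0.0837% and 0.0854% over 12 measured genes, led by gch2, a GTP cyclohydrolase, at 86.7 ± 6.94 CPM per kb. This list was set by gene name. Whether each member, such as gmps or mycbp2, is made only by these pigment cells was not tested, so the share does not measure their content.

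The remaining tissue lists held small shares. The 15 measured choroid endothelium genes held 0.00971% ± 0.00115 (SD, n = 3) and none was above the median named gene. kdr and cdh5, a receptor and a cadherin of endothelium, averaged 3.46 ± 1.51 and 2.76 ± 1.72 CPM per kb. Of 36 lens symbols, 4 were measured, and they held 0.00132% ± 0.000939. The level of the unlisted lens symbols is unknown. The 13 measured skeletal muscle genes held 0.0330% ± 0.00885, with 10 of the 13 under 5 CPM per kb and neb, nebulin, the highest at 14.6 ± 4.10 CPM per kb. Of the summed CPM per kb of the named genes, this list held only 0.0113%.

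**Figure D2:**
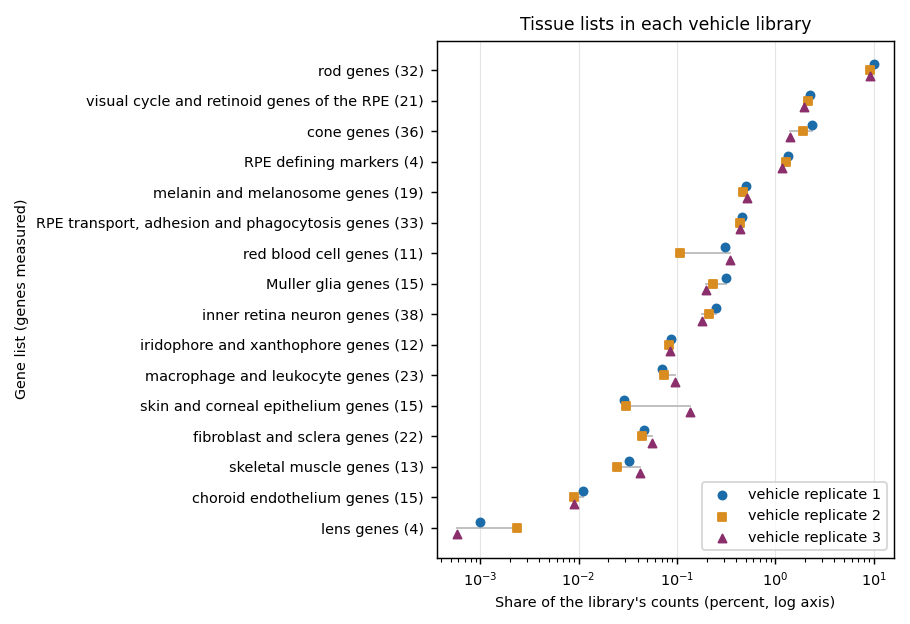
Share of each vehicle library's counts held by each tissue list, in percent on a log axis, with the number of genes measured in brackets. Each point is 1 library. Rod genes lead at 9.12% to 9.99%, visual cycle genes hold 1.98% to 2.23%, and the red blood cell, skin and lens lists have the widest gaps between libraries.

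Exact Clopper-Pearson intervals for the visual cycle share were 2.22% to 2.24% in vehicle 1, 2.14% to 2.16% in vehicle 2 and 1.97% to 1.99% in vehicle 3. These shares of the library total therefore differed by more than counting error, and the SD between them is the error to use. With TMM scaling the shares were 2.105%, 2.117% and 2.131% in vehicle 1, 2 and 3, in the reverse order. The order of the libraries thus depended on the scaling.

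Housekeeping and metabolic lists separated the libraries as well. Of 80 cytosolic ribosomal proteins, 79 were highest in vehicle 3 by CPM and all 80 by TMM scaling, and the list held 2.33%, 2.25% and 2.76% of the counts. rpl26, of the large subunit, averaged 1161 ± 154 CPM per kb. rps8a, of the small subunit, averaged 1000.3 ± 80.5 CPM per kb. The median ribosomal protein gene had 435 CPM per kb, near the level at rank 100.

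Elongation and initiation factors held 1.0975% ± 0.0591 over 82 genes, and their direction depended on the scaling. By CPM, 42 of the 82 were highest in vehicle 1, whereas by TMM scaling 48 were highest in vehicle 3. eef1b2, of the elongation complex, averaged 480 ± 46.3 CPM per kb.

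Glycolysis and lactate enzymes had the same order of libraries as the cone list. The 24 measured genes held 0.579%, 0.482% and 0.350%, and 21 of them were lowest in vehicle 3 by CPM and 19 by TMM scaling. gapdhs, a glyceraldehyde phosphate dehydrogenase, had 876, 745 and 529 CPM per kb, and aldocb, aldolase C, had 370, 293 and 188 CPM per kb. ldhba, a lactate dehydrogenase, had 199, 160 and 148 CPM per kb.

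Respiratory chain subunits held 0.915% ± 0.0709 over 95 measured genes. cox4i1, of cytochrome oxidase, averaged 537 ± 31.0 CPM per kb and atp5f1b, of the ATP synthase, 513 ± 70.2 CPM per kb. By CPM, 60 of the 95 were highest in vehicle 1, whereas by TMM scaling 56 were highest in vehicle 3, so no library order held for this list.

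Lysosome and redox genes, which serve the digestion of outer segment tips and the handling of oxidants in RPE, held even shares. The 29 measured lysosome and endosome genes held 0.419% ± 0.0197, led by laptm4a, a lysosomal membrane protein, at 370 ± 36.8 CPM per kb. ctsd, cathepsin D, had 312, 316 and 346 CPM per kb, and psap, the saposin precursor, had 331, 314 and 323 CPM per kb. The 27 measured iron and redox genes held 0.356% ± 0.0134. gstp1.2, a glutathione transferase, averaged 732 ± 50.6 CPM per kb and fth1a, a ferritin heavy chain, 548 ± 33.7 CPM per kb.

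Stress genes differed between all the libraries, with the lowest share in vehicle 1 and the highest in vehicle 2. The 28 measured immediate early and stress genes held 0.150% in vehicle 1, 0.298% in vehicle 2 and 0.224% in vehicle 3. Of them, 21 were lowest in vehicle 1 by CPM and 22 by TMM scaling, and none was highest there. egr1, an early growth response factor, had 320, 644 and 455 CPM per kb, and fosab, of the AP-1 complex, had 122, 266 and 152 CPM per kb. btg2, an antiproliferative early gene, had 92.0, 234 and 166 CPM per kb.

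The list of heat shock proteins and chaperones held 0.691%, 0.904% and 0.897% over 90 genes, a lower share in vehicle 1 that its members did not share. By CPM, 47 of the 90 were highest in vehicle 1 and 18 lowest, and by TMM scaling 34 were highest and 29 lowest there. hsp70.3, an HSP70 chaperone, had 353, 1088 and 1093 CPM per kb, and dnajb1b, an HSP40 partner, had 36.7, 104 and 95.8 CPM per kb. The chaperones hspa8 and hsp90ab1, which most cells make at rest, had 437, 477 and 477 and 391, 387 and 422 CPM per kb. The hsp70.3 level without vehicle 1 was 1090 CPM per kb.

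**Figure D3:**
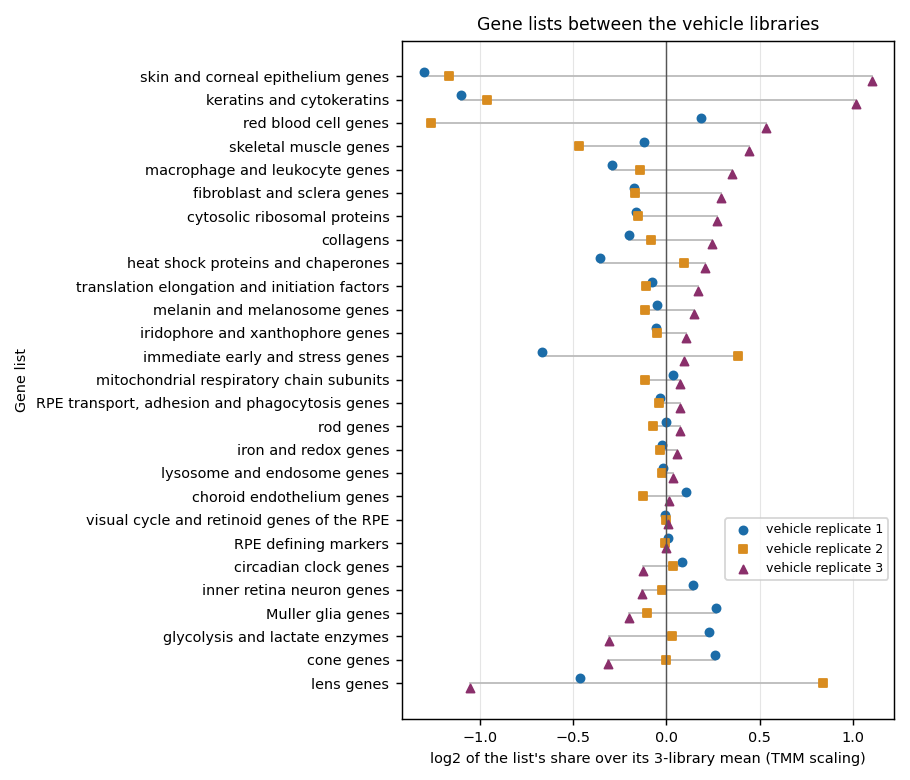
Share of each gene list in each vehicle library over its mean in the 3 libraries, on a log2 scale after TMM scaling. Points to the right of 0 are libraries with more of the list. Skin genes and keratins are over 1.0 in vehicle 3, red blood cell genes are at -1.27 in vehicle 2, stress genes are at -0.67 in vehicle 1, and the RPE markers and the visual cycle list are within 0.01 of 0 in all 3 libraries.

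The RPE lists differed among themselves in vehicle 3. With TMM scaling, the visual cycle list was within 0.01 of its 3-library mean on the log2 scale in each library, and the defining markers likewise. The level sum of the visual cycle list covered members in both directions, with 9 of 21 highest and 9 lowest in vehicle 3. The RPE transport list was 0.07 above its mean in vehicle 3, with 14 of 33 members highest and 15 lowest there. The melanin list was 0.15 above its mean there, with 16 of 19 members highest and 1 lowest. In vehicle 3 the cone list was 0.31 below its mean, the Muller glia list 0.20 below and the inner retina list 0.13 below. The inner retina sum holds trpm1a, its leading gene, which rose there, at 816, 712 and 1119 CPM. Since 33 of the 38 genes were lowest in vehicle 3, the sum understates the fall of the others. These list values therefore do not rank the falls of the member genes.

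The zebrafish genome carries many duplicated genes, whose copies are named with a last letter a or b. In all, 1853 such pairs had at least 30 summed counts in each library. For 604 of them the larger copy held 80% or more of the summed level per kb, for 260 it held 90% or more, and for 9 it held 99% or more. In 490 pairs the larger copy held under 60%. The median share of the larger copy was 70.9%, and the a copy was the larger in 932 pairs and the b copy in 921.

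Pairs were found by symbol alone, so some are not duplicates: sdha with sdhb, idh3a with idh3b and polr2a with polr2b are different subunits of a complex. Where copies are alike in sequence, the counting may also have split reads between them, and their shares are uncertain to that extent. Among the pairs counted, unequal ones were more frequent at high level. The larger copy held 80% or more in 43.4% of the 618 pairs with the highest summed level, against 24.1% of the 617 with the lowest. Of the 14290 named genes, 14130 had a mean of at least 1 CPM, and pairs with only 1 copy in the table were not counted. A pair of low summed level thus had less room for an unequal share. The difference therefore cannot show that inequality rises with level.

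The larger copy was the same in all 3 libraries for 1600 of the 1853 pairs. Between vehicle 1 and 2 alone it was the same for 1728 pairs. The median range of the share over the libraries was 6.70 percentage points.

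In each visual cycle family the larger copy was the same in all 3 libraries. rlbp1b held 96.9%, 98.2% and 99.3% of the level of its pair, while rlbp1a had 47.2, 24.0 and 9.14 CPM per kb. rgrb held 79.0%, 79.5% and 79.99% of the rgr pair. lratb.1 held 78.3%, 66.1% and 74.4% beside lrata, and rdh10a held 77.4%, 82.0% and 62.5% beside rdh10b. The smaller copy rlbp1a was lowest in vehicle 3, as were the cone and inner retina lists, while rgra kept a near-constant share. For rpe65, a single copy, rpe65a, was measured.

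In the pigment families with both copies measured, no copy dominated. pmela held 46.9% and 43.2% of its pair in vehicle 1 and 2 and 64.8% in vehicle 3. This came with pmelb, at 282, 277 and 134 CPM per kb, since pmela was even. In the melanin list, 2 of 19 genes were lowest in vehicle 3 by CPM and 1 by TMM scaling. mitfb held 63.6%, 60.3% and 60.4% beside mitfa, both copies of a transcription factor of pigment cells. trpm1b held 56.5%, 60.1% and 53.5% beside trpm1a. For tyrp1, only tyrp1b was measured.

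In the phototransduction families the share of the larger copy ranged from near single-copy use to below the median of all pairs, 70.9%. gnb3b, the cone transducin beta subunit, held 99.1% ± 0.388 of its pair (SD, n = 3), arr3a, a cone arrestin, 91.9% ± 1.51, and grk7a, a cone opsin kinase, 86.9% ± 1.23. pde6ha held 77.9% ± 1.47 beside pde6hb and rom1b 73.0% ± 1.53 beside rom1a. saga, a rod arrestin, held 65.6% ± 2.59 beside sagb. gngt2b held 66.7% of its pair in vehicle 1 and 78.2% and 79.6% in vehicle 2 and 3.

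Cone opsin copies shifted more between libraries. opn1lw1 held 80.7%, 74.0% and 82.1% of the red opsin pair. Among the 4 green opsins, opn1mw2 held 78.2%, 73.6% and 62.1%. opn1mw3 held 12.4%, 11.2% and 30.2%, opn1mw1 2.82%, 11.1% and 3.97%, and opn1mw4 6.60%, 4.15% and 3.78%. opn1mw1 was thus highest in vehicle 2, at 152 CPM per kb against 44.6 in vehicle 1 and 29.7 in vehicle 3, and opn1mw3 was highest in vehicle 3 at 225 CPM per kb. These opsins are tandem copies, so reads may have been divided among them.

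Other abundant pairs named here ranged from near single-copy use to near equal shares. ckbb held 99.7% ± 0.101 beside ckba, glula 97.98% ± 0.362 beside glulb, and the calmodulin genes calm1a and calm2b 97.2% ± 0.450 and 96.8% ± 0.577. rps8a held 95.01% ± 0.334 beside rps8b, ppdpfa 94.3% ± 0.989 beside ppdpfb, and ptmab, prothymosin alpha, 89.5% ± 0.494 beside ptmaa. gpx4b, a peroxidase that protects membrane lipids, held 78.0% ± 2.99 beside gpx4a. eno1b, an enolase, held 52.3%, 54.1% and 64.3%.

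**Figure D4:**
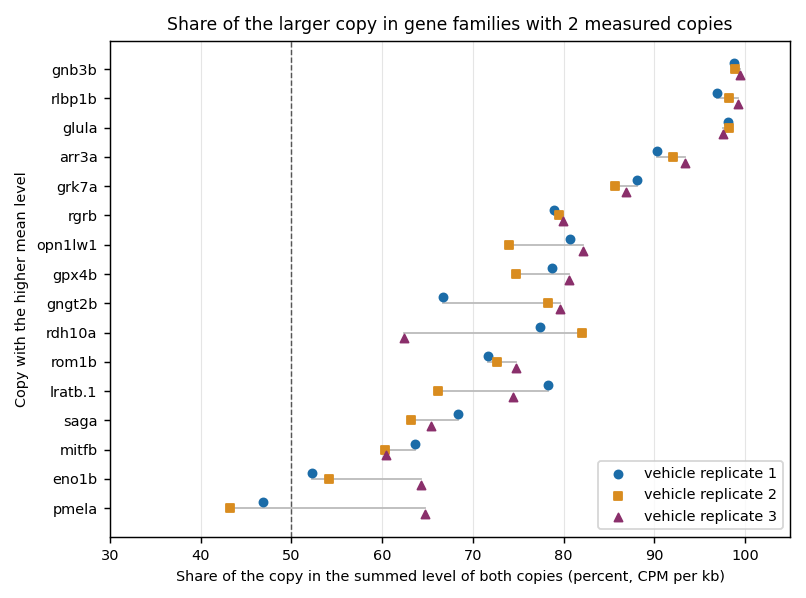
Share of the larger copy in the summed level of both copies, in percent of CPM per kb, for the families with 2 measured copies. Each point is 1 vehicle library and the dashed line marks 50%. gnb3b, rlbp1b and glula lie above 96% in all libraries, and pmela lies on both sides of the line.

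Of the 776 pairs with a copy of at least 50 CPM, 46 changed their larger copy between libraries. The widest change was in slc1a2, glutamate transporters of glia and neurons: slc1a2a held 45.1%, 54.5% and 86.7%. kif1aa, a kinesin of axonal transport, held 49.2%, 54.4% and 79.0% of its pair, and gnao1b, a G protein alpha subunit of neurons, held 70.4%, 64.9% and 45.6%. Of the copies that lost share in vehicle 3, slc1a2b had 339, 200 and 26.4 CPM and gnao1b had 210, 150 and 47.7 CPM.

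The same kind of change was seen for ubl3a at 68.8%, 61.0% and 45.8%, rtn1b at 42.8%, 52.1% and 65.4%, and ndrg1a at 43.6%, 53.0% and 64.1%. The glucose transporter copy slc2a1a held 66.9%, 61.0% and 49.3%, and cplx4a, a complexin of ribbon synapses, 55.5%, 63.3% and 43.9%. lgalsla held 49.9%, 56.5% and 69.5%, and irs2a, an insulin receptor substrate, 59.7%, 41.0% and 52.1%. Among the changing pairs named here and the pmel pair, vehicle 3 had the highest or the lowest share in all but irs2. These pairs are among those with the widest range of share, where a library that stands apart is likely to be an extreme. How often this held over all changing pairs was not determined, so it does not set these pairs apart.

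The spread between libraries was small for most genes. Among the 8590 genes with a mean of at least 10 CPM, the median coefficient of variation (CV, the SD over the mean) was 12.6%. Over 2-fold between the lowest and highest library were 822 genes, or 9.57%, and 73 were over 5-fold. Between vehicle 1 and 2 alone, 67 genes, or 0.780%, were over 2-fold, and the median CV without vehicle 3 was 7.09%. The common biological CV of edgeR over the named genes was 24.8% for the 3 libraries and 12.2% without vehicle 3.

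The spread was widest for genes of 1 to 10 CPM, with a median CV of 24.9% over 5540 genes, where counting alone would give 14.4%. Above 10 CPM it differed little between levels, while counting error fell. For genes of 10 to 100 CPM the median CV was 12.8%, where counting would give 5.93%. For genes of 100 to 1000 CPM it was 11.5%, where counting would give 2.29%. The 59 genes above 1000 CPM had a median CV of 13.8%, where counting would give 0.778%.

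**Figure D5:**
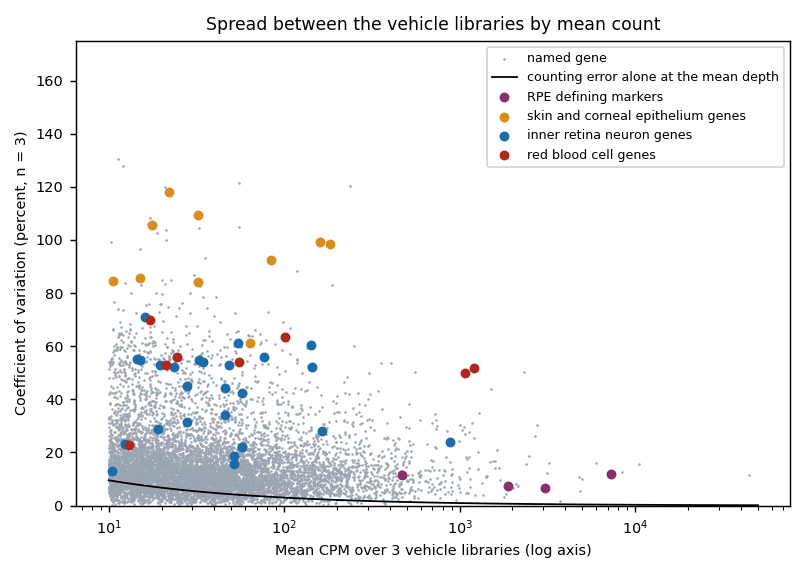
CV between the 3 vehicle libraries against mean CPM on a log axis, for named genes with a mean of at least 10 CPM. The black line is the CV that counting error alone gives at the mean depth, and coloured points are members of 4 gene lists. The 4 RPE markers lie at or below 12.03%, and the skin genes lie above 60%.

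Of the 2882 genes with at least 50 CPM, 180 were over 2-fold between libraries, and 144 of these were lowest in vehicle 3. With TMM scaling the numbers were 141 and 101. A further 18 of the 180 were highest in vehicle 3 by CPM, and 26 of the 141 by TMM scaling.

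The 12 genes with the widest CV at this level included some high and some low in vehicle 3. High there were the keratins krt97, with 20.3, 23.5 and 123 CPM, krt5, krt91 and krt4, and the large scaffold gene ahnak, with 59.2, 73.6 and 191 CPM. cndp1, a carnosine dipeptidase, had 10.5, 143 and 555 CPM, a factor of 53.0, and gig2l had 6.90, 26.9 and 132 CPM. Of these, krt91 was lowest in vehicle 2 and the others in vehicle 1.

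Low in vehicle 3 were slc1a2b, given above, the GABA transporter slc6a1b, with 129, 97.9 and 15.1 CPM, and cplx3b, a complexin of ribbon synapses, with 146, 127 and 20.7 CPM. The other two were high in vehicle 2: opn1mw1, with 70.4, 240 and 46.9 CPM, and coch, a cochlin gene, with 12.1, 88.1 and 58.0 CPM. The genes low in vehicle 3 are known from neurons and glia. Their lowest values went with the lowest share of inner retina and Muller glia genes, whose part was not tested. slc1a2b is itself a member of the Muller glia list, so it is partly set against itself here.

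Among the 12 genes with the narrowest CV, egfra, an epidermal growth factor receptor, had 133, 133 and 133 CPM, capza1a, an actin capping subunit, 52.1, 52.1 and 52.4 CPM, and the kinase gene cdc42bpb 93.4, 93.5 and 92.9 CPM. vps13d, a lipid transfer protein, had 242, 241 and 241 CPM, and id2a, an inhibitor of helix-loop-helix factors, 166, 167 and 167 CPM. The other 7 were gprc5c, ogt.2, arvcfb, lyn, tfap2c, sec61a1a and tcf3b, all with a CV of at most 0.817%.

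These values lay below the CV that counting alone gives at such levels, and the 12 are the extremes of 2882 genes. Since CPM was used, a gene with a flat CPM lay above the median of the named genes in vehicle 3, by the median log2 difference given above.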

How the data were processed

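RNA sequencing counts of 3 vehicle zebrafish RPE libraries were used. Per the file headers, the authors deposited raw counts per transcript record with a transcript length; the submitters' processing notes name Bowtie 0.12.7 and edgeR, and no build is named there or in the table. A row without a gene name held the column totals and was left out. Counts were scaled to CPM of the column total, and to CPM per kb. Symbols were updated from RefSeq (GRCz12tu) by accession (12528 records), gene ID (1803) or older clone name (344), with 3640 unmatched. A gene was its most abundant record.

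Python 3.11.15, pandas 2.3.3, SciPy 1.17.1, R 4.3.3 and edgeR 4.0.16 (TMM factors, common dispersion) were used. The common dispersion was tested on simulated data, and the TMM factors were not. Clopper-Pearson intervals (95%) and the 3-count floor cover counting error only. Genes named: the 30 highest by CPM and 20 per kb, the 4 highest of each list with the markers, the listed families, the 12 most abundant and up to 12 changing pairs, and the 12 widest and 12 narrowest CVs at 50 CPM or more. Others (tyr, oca2, slc45a2, cyp27c1, otx2b, rgra, dnajb1b, bco2a, rdh8a and the like) were chosen after their values were seen. A gene that the rule names is not reported here. Members and lists were chosen with earlier results of these data known. Alternatives were other scalings, units, filters, symbols and leaving out each replicate.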

Additional observations from a re-analysis of the deposited data

How the results depend on the processing

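Of the 4 summary values, each kept within its limit (1.5 times for a count, 1 SD for a value) under the alternatives except these. The number of genes holding 50% of the CPM was 299 per kb. The visual cycle share was 3.67% of the summed CPM per kb, and 2.51% of a total without the 6 most abundant locus records, an alternative chosen after seeing the data. Pairs at 90% or more numbered 260. The median CV was 7.09% without vehicle 3, against 12.6% with all libraries, and so moved beyond its limit. Leaving out each replicate in turn gave 584 to 620 genes, 2.07% to 2.19% of counts, 603 to 628 pairs and a median CV of 7.09% to 13.8%, the lowest without vehicle 3. No paired analysis was possible because only 1 group was analysed. Of the other list shares, 166 of 216 alternative values were within 1 SD, and of single gene levels 853 of 936. Leaving out 1 of 3 libraries cannot move a mean by 1 SD, so those values could not fail. A total without the 6 locus records moved 17 of the 27 list shares and 83 of the 156 gene levels beyond 1 SD. Taking shares of the summed CPM per kb moved 21 of the 27, and using file symbols only moved 12. Depth limits genes near the 3-count floor, and 3 libraries limit every SD.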

Other observations

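Circadian clock genes were well above the typical named gene in the vehicle RPE. The 34 measured genes held 0.528%, 0.489% and 0.400% of the counts in vehicle 1, 2 and 3, and 28 of them were above the median named gene. hlfa, a PAR bZIP transcription factor of clock output, had 357, 334 and 280 CPM per kb, and bhlhe40, a clock repressor, had 353, 354 and 262 CPM per kb. cry3a and cry3b, cryptochromes, had 135, 141 and 125 and 136, 137 and 134 CPM per kb. per2, a light-induced period gene in zebrafish, had 121, 97.6 and 84.1 CPM per kb. The time of day of the dissection is not in the labels. Under CPM 26 of the 34 genes were lowest in vehicle 3, and under TMM scaling 19 were. The share of all named genes lowest there was not determined, so these numbers are not a trait of the list.

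Collagens were low. The 39 measured genes held 0.101% ± 0.00962 of the counts (SD, n = 3), and 24 were under 5 CPM per kb. The first was col18a1, a basement membrane collagen, at 67.2, 65.0 and 68.7 CPM per kb. The cartilage-type collagen genes col9a2, col9a3 and col9a1a averaged 20.8 ± 4.21, 19.3 ± 4.90 and 17.7 ± 3.06 CPM per kb. The 15 keratin and cytokeratin genes held 0.0382%, 0.0403% and 0.146%, and 14 of them were highest in vehicle 3. The exception was krtcap2, a keratinocyte-associated protein gene that the name pattern of the list took in and that is no keratin, at 13.9, 17.1 and 13.8 CPM per kb. krt222 was close to level, at 32.2, 32.7 and 36.3 CPM per kb.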
